A study of Mus musculus with 4 samples.

Results

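The endoneurial mesenchymal cells of the uninjured sciatic nerve were 267 cells chosen by the UMIs (unique molecular identifiers, each of which counts 1 captured mRNA) that they held of 14 genes. Of the 2000 cell barcodes of the uninjured library, 1945 had at least 200 genes and at most 10% mitochondrial UMIs, and the chosen cells, called members below, were 13.7% of these (exact interval 12.2 to 15.3%). A member had at least 2 UMIs summed over the endoneurial genes Osr2, Wif1, Etv1, Sox9, Matn4 and Meox1, at least 3 UMIs over the mesenchymal genes Col1a1, Col1a2, Dcn, Lum and Pdgfra, and none of Sox10 (Schwann cells), Pecam1 (endothelial cells) or Ptprc (immune cells). The library was made by Drop-seq, a droplet method of single-cell RNA sequencing, from both sciatic nerves of adult wild-type CD1 mice after dissociation and removal of myelin with beads. It was 1 of 4 libraries, the others being distal nerve of adult CD1 mice 3 days after transection (3 DPI, also cleared with beads) and nerves of neonatal CD1 pups, 1 library sorted by FACS (P3-P4) and 1 cleared with beads (P2-P3). How many animals were pooled was not given in the sources used here. With 1 library for each group there were no replicates, so no test of a difference was possible. Values are given with exact 95% intervals that cover counting error only, and differences between cells chosen by their own UMIs are descriptions.

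A peripheral nerve is wrapped in an outer connective tissue sheath, the epineurium, and each of its fascicles is bounded by a layered perineurium. Inside the fascicle lies the endoneurium, the matrix between the axons and their Schwann cells, and its mesenchymal cells, or endoneurial fibroblasts, carry Pdgfra and are thought to arise at least in part from the neural crest. They make the collagen around the nerve fibers and are known to respond when the nerve is injured.

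The members held between 683 and 8026 UMIs each, with a median of 2856 and a sum of 805134, and between 423 and 2593 genes with a median of 1235. Their median share of mitochondrial UMIs was 1.14%. They were deeper than the other gated cells of the same library, among which 342 epineurial-gated cells had a median of 1941 UMIs, 99 perineurial-gated cells 1733, 38 Schwann-gated cells 912.5 and 120 endothelial-gated cells 1493.5. The epineurial gate asked for the same mesenchymal genes, no UMI of the 6 endoneurial genes and at least 2 UMIs of Pcolce2, Dpp4, Dpt, Pi16, Comp and Clec3b. Between any pair of libraries 0 to 3 barcodes were shared, and none of these belonged to members. Because depth differed, levels are given as counts per 1000000 (CPM, UMIs of a gene summed over a class and divided by all UMIs of the class), and shares of cells with a UMI are also given after each cell was thinned at random to 500 UMIs.

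The same gate found 311 of 2281 filtered cells at 3 DPI (13.6%), 159 of 2306 in the sorted neonatal library (6.90%) and 255 of 5736 in the neonatal bead library (4.45%). Their median depth was 6046, 3440 and 1721 UMIs, so that a fixed minimum of UMIs was easier to reach at 3 DPI than in the uninjured nerve.

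Of the 6 endoneurial genes, Osr2 and Sox9 carried the choice of the uninjured cells and Wif1 hardly took part. Osr2, an odd-skipped zinc finger factor of connective tissue, was found in 70.04% of members at 828 CPM (767 to 894), and Sox9, an SRY-box factor of neural crest derivatives and cartilage, in 66.7% at 533 CPM (484 to 586). Etv1, an ETS family factor, was found in 35.2%, Meox1, a homeobox gene of the somites, in 15.4%, and Matn4, a matrilin of the matrix, in 14.98%. Wif1, which encodes a secreted Wnt inhibitor, gave 12 UMIs in all, in 1.87% of members (0.611 to 4.32%), with no UMI in the epineurial-, perineurial-, Schwann- or endothelial-gated cells. In the cells of the same gate at 3 DPI, Wif1 was found in 68.2% at 616 CPM and Matn4 in 52.1% at 275 CPM, whereas Osr2 was found in 50.8% at 178 CPM. The median depth of the uninjured cells was the lower, but Wif1 UMIs were few in them also per UMI, at 14.9 CPM. Since these genes chose the cells of every library, their levels are not findings.

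**Figure D1:**
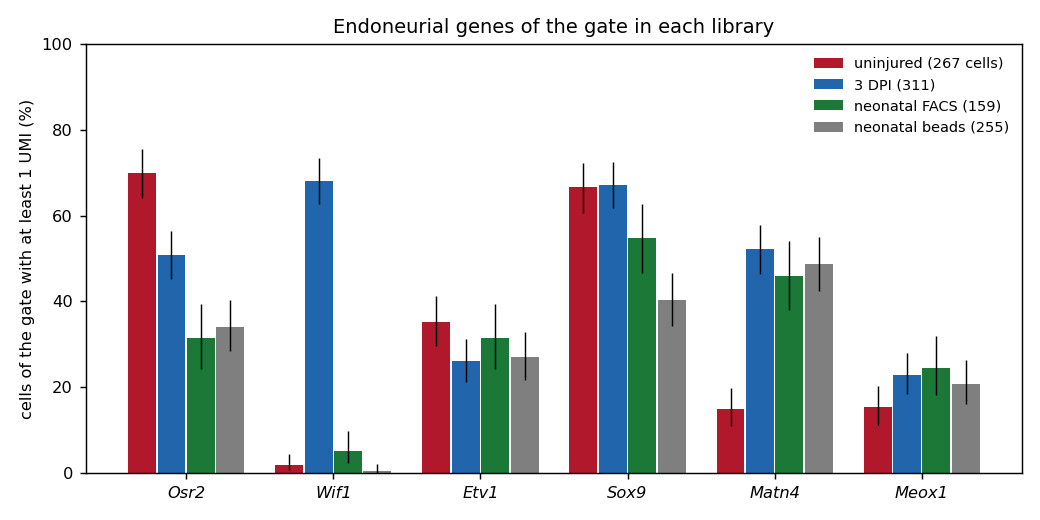
Percent of the gated cells that held a UMI of each of the 6 endoneurial genes of the gate, in the uninjured, 3 DPI, neonatal FACS and neonatal beads libraries. The lines are exact 95% intervals that cover counting error only. Wif1 stands at 1.87% of the uninjured and 68.2% of the 3 DPI cells, while Sox9 is at 66.7% and 67.2%.

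The members seldom held many of these genes together. A single gene of the 6 was found in 68 members, 2 in 138, 3 in 46, 4 in 12, 5 in 3 and all 6 in none. Osr2 and Sox9 were found together in 122 members (45.7%), Osr2 and Etv1 in 63 (23.6%) and Etv1 and Sox9 in 57 (21.3%), and no member had both Wif1 and Matn4. The summed UMIs of the 6 genes had a median of 4 and reached 25. They were exactly 2, the minimum, in 75 members (28.1%). The mesenchymal genes left more room, with a median sum of 252 UMIs, a highest sum of 835 and 3 members at the minimum of 3. The last criterion removed cells with a UMI of Sox10 (14 cells), Pecam1 (35) or Ptprc (2).

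Genes that the gate did not read followed the endoneurial sum in steps. Apod stood at 69206 CPM in the 192 members with a sum of 3 or more, at 51917 in the 75 with a sum of 2, at 35757 in 174 cells just outside the rule with a sum of 1 and at 9102 in 687 cells with a sum of 0. Gfra1 stood at 379, 283, 172 and 35.2 CPM in the same order, and Sfrp4, an epineurial gene, ran the other way at 52.5, 153, 731 and 2464 CPM. The cells with a sum of 1 were thus between the members and the remaining mesenchymal cells, and they were shallower, with a median of 1668.5 UMIs against 3161 in the members with a sum of 3 or more.

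A clustering that left out the 14 genes of the gate placed 238 of the 267 members (89.1%) in 1 cluster of 439 cells. The share in that cluster was 94.3% at a sum of 3 or more, 76.0% at 2, 52.3% at 1 and 11.9% at 0. Genes that led this cluster over the rest of the library included Fndc5, Hpca, Cdkn2a, A2m, Abca6, Epyc and Gfra1, and Osr2 itself. Of the other members, 15 lay in a cluster with Schwann cell markers, 6 and 5 in clusters with epineurial markers, 2 in a cluster with markers of vascular smooth muscle and pericytes and 1 in a cluster with endothelial markers. RNA of other cell types was present at low levels. Mbp, which encodes a protein of myelin, was found in 14.2% of members at 101 CPM, against 5287 CPM in Schwann-gated cells, and also in 9.06% of epineurial-gated and 7.5% of endothelial-gated cells, which were shallower. The beta-globin gene Hbb-bs was found in 54.3% of members and 50% of epineurial-gated cells. The share of cells with such a UMI was thus alike in classes that should lack it, and the part of free RNA in the droplets was not tested. Summed endothelial markers stood at 91.9 CPM in members (6713 in endothelial-gated cells), perineurial markers at 48.4 (4188 in perineurial-gated cells) and Schwann cell markers at 816 (31086 in Schwann-gated cells). Of 8 immune markers 4 had no UMI in any member, and the 8 summed to 9.94 CPM.

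The most abundant mRNA of the members was Apod, apolipoprotein D, a lipid-binding protein of the lipocalin family. Apod made up 6.54% of all their UMIs, and the 15 highest genes together 24.9%. It was found in 99.3% of members at 65414 CPM, and over single members it ran from 0 to a median of 61662 and a maximum of 170868 CPM. The level was 6242 CPM in epineurial-gated cells, 3916 in perineurial-gated, 913 in Schwann-gated and 772 in endothelial-gated cells, so the members stood 10.5-fold above the nearest class. At 500 UMIs per cell, Apod was still found in 97.0% of members, against 67.1% of epineurial-gated and 38.5% of endothelial-gated cells. Whether free Apod RNA adds to the level of the other classes was not tested.

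After mitochondrial and ribosomal genes were left out, and apart from the genes of the gate, Malat1 and Fth1, the 15 most abundant genes of the members were of 2 kinds besides Apod, matrix and secreted proteins (Col3a1, Sparc, Gsn, Gpc3, Smoc2, Cp and Angptl7) and immediate-early genes (Fos, Jun, Egr1, Fosb and Junb). Col3a1, the chain of type III collagen, stood at 16103 CPM and Sparc, a collagen-binding matrix protein, at 14968. Smoc2, a relative of Sparc, was found in 92.5% of members at 5623 CPM, with 1016 in epineurial-gated and 3429 in perineurial-gated cells. Cp, ceruloplasmin, a copper-bearing ferroxidase, stood at 4848 CPM, 14.3-fold above the epineurial-gated cells, with a median over single members of 4038 and a maximum of 15888. Gpc3, a glypican, stood at 5867 CPM and 3.81-fold above them. Angptl7, a secreted angiopoietin-like protein, was uneven, since it was found in 62.9% of members and its middle 50% ran from 0 to 5688 CPM around a mean level of 3840.

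**Figure D2:**
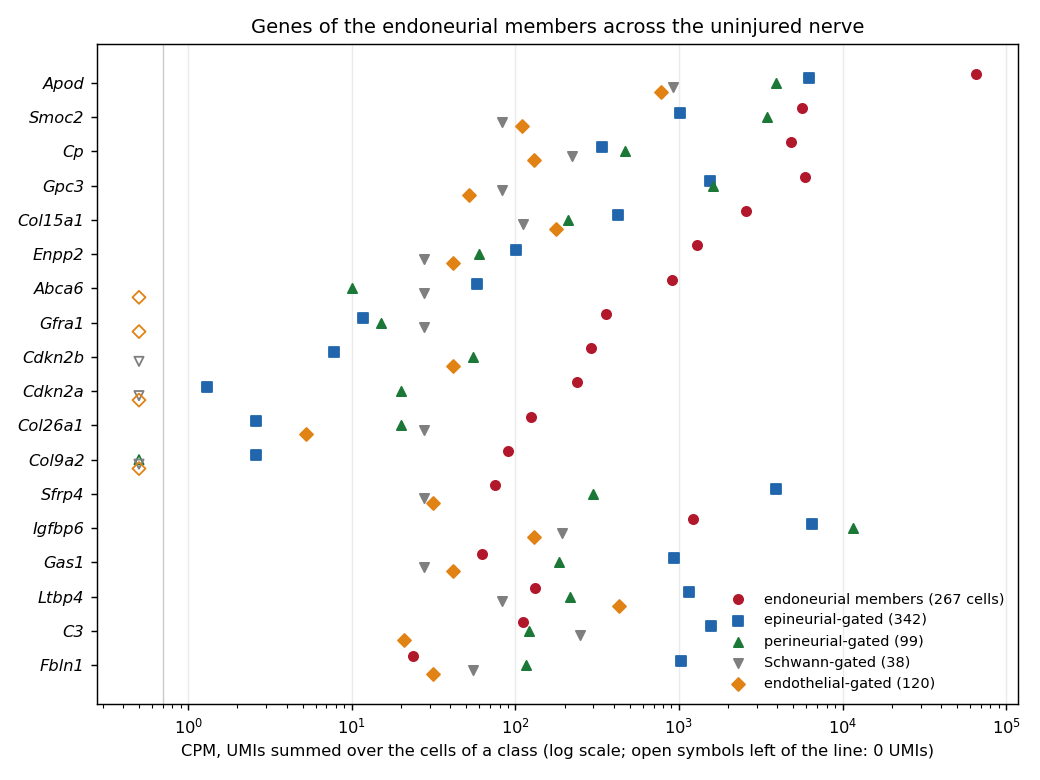
CPM of 18 genes in 5 gated classes of the uninjured library, on a log axis, with classes at 0 UMIs drawn as open symbols left of the line. From Apod to Col9a2 the members (red circles) lie highest, with Apod at 65414 CPM, and from Sfrp4 to Fbln1 they lie below the epineurial-gated cells (blue squares), with Sfrp4 at 74.5 against 3922 CPM.

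Against the epineurial-gated cells, 6435 genes outside the gates had at least 20 UMIs in the higher class, and a gene was called higher or lower at a 2-fold ratio of CPM. On this rule 658 genes (10.2%) were higher in members and 733 (11.4%) were lower. The median gene differed by -0.036 on the log2 scale. When the 143 members of a sub-cluster with a higher summed dissociation response (described below, and called the dissociation-high sub-cluster) were left out, 4934 genes had enough UMIs, of which 302 (6.12%) were called higher and 861 (17.5%) lower. Counts against epineurial-gated cells given below without this sub-cluster are to be read against these shares. Those given over all members are to be read against 10.2% higher and 11.4% lower. The genes with the largest ratios were mostly at or near 0 in the epineurial-gated cells. Cdkn2a, the cyclin-dependent kinase inhibitor locus that also encodes the p53 regulator ARF, gave 192 UMIs in members and 1 in epineurial-gated cells (184-fold, interval 32.7 to 7314). Nrxn2, a neurexin of synapses, was 72.0-fold higher (12.5 to 2880), Sdc3, the neural syndecan, 56.6-fold (15.3 to 473), Cst6, a cystatin, 55.7-fold (15.1 to 465) and P2ry14, a receptor for UDP-glucose, 51.8-fold (14.0 to 433). Chn1, Hpca and Rcsd1, which are best known from neurons and muscle, followed at 49.9-, 43.2- and 38.4-fold, each against 1 UMI. The genes that were lowest in members were Inmt, a methyltransferase (12.4 against 1593 CPM, 128-fold lower, 69.5 to 268), the complement gene C7 (77.8-fold), Tspan11, Spon2, Sfrp4 (52.6-fold, 40.8 to 69.1), Fmo2 and Fbln1 (43.6-fold).

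Single genes of the basement membrane were higher in members than in epineurial-gated cells, while the list as a whole summed to about the same level (28298 against 28048 CPM). Of 19 basement membrane and network genes compared, 6 were higher and none lower, beside 10.2% of all genes higher and 11.4% lower. Lama2, the laminin chain that Schwann cells bind, was found in 76.8% of members at 867 CPM (3.60-fold higher), Lamb1 stood at 604 CPM (3.13-fold), Col15a1, a collagen of the basement membrane zone, at 2560 CPM (6.07-fold) and Col28a1 at 155 CPM (23.99-fold). Over single members Col15a1 ran from 0 through a median of 2351 to 11070 CPM. Hspg2 (perlecan) and Col18a1 were the other 2, at 2.02- and 3.32-fold. Of 23 elastic and other matrix genes, 3 were higher and 15 lower, and the list summed to 11722 CPM in members and 15086 in epineurial-gated cells. Smoc2, Matn2 (6.24-fold) and Thbs1 (3.56-fold) were the 3 higher ones, while Fbln1, Mfap4 (28.1-fold), Fbln5 (7.53-fold), Mgp (6.54-fold) and Fbn1 (2.26-fold) were among those lower.

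Fibrillar collagens and their partners were lower in 7 of 14 and higher in 1 of 14, the higher one being Col11a1. Aspn stood at 55.9 against 1114 CPM in epineurial-gated cells, Col14a1 at 52.2 against 795 and Bgn (biglycan) at 314 against 1504. Of 22 genes of matrix turnover, Adamts1 was higher (3.16-fold) and 12 were lower, the largest ratio being that of Lox, the collagen cross-linking enzyme (18.6 against 606 CPM, 32.5-fold lower). Mmp2 was nevertheless abundant in members at 2257 CPM, 1.78-fold above the epineurial-gated cells.

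A set of genes known from cartilage was found in the members. The list of 19 cartilage matrix genes was drawn up after some of these values had been seen and is a description. Of the 7 compared, 5 were higher than in epineurial-gated cells and 1 was lower. Col2a1, the main collagen of cartilage, gave 79.5 CPM against 1 UMI in epineurial-gated cells (61.4-fold, 10.6 to 2463), Col9a2 90.7 CPM (35.0-fold, 9.35 to 295), Col11a1 107 CPM (6.88-fold, 3.74 to 13.8) and Epyc, the proteoglycan epiphycan, 308 CPM (29.7-fold, 14.9 to 69.7). Epyc was confined to 16.9% of members, in which a single cell reached 20 UMIs. Col26a1 stood at 124 CPM (48.0-fold, 12.9 to 402). The lower gene was Prg4, lubricin, which had no UMI in members against 53.1 CPM in epineurial-gated cells (at least 14.2-fold lower with a floor of 3 UMIs over the class). Sox9 is the factor that drives Col2a1, Col9a2 and Col11a1 in chondrocytes, and it was one of the genes that chose the members. Its relatives Sox5, Sox6 and Sox8 were not, and stood at 55.9 CPM (5.40-fold above epineurial-gated cells), 29.8 CPM (against 1 UMI, 23.0-fold, 3.76 to 947) and 107 CPM (13.8-fold, 6.07 to 38.5).

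Among 31 transcription factors compared, 11 were higher and 6 lower in members than in epineurial-gated cells, and without the dissociation-high sub-cluster 4 were higher and 5 lower of 20. Tcf4, an E protein that is also expressed in endothelial cells, was the most abundant, in 80.1% of members at 1092 CPM (5.14-fold above epineurial-gated cells, and level with the 1111 CPM of endothelial-gated cells). Snai2 (4.80-fold), Foxs1 (7.92-fold), Foxc2 (3.96-fold), Tbx18 (2.32-fold) and Etv5 (4.80-fold) were also higher. Prrx1, a homeobox factor of limb connective tissue, was lower (163 against 730 CPM, 4.49-fold), as were Osr1 (3.22-fold) and Foxp1 (5.64-fold). Osr1, the paralog of Osr2, was thus found in fewer members (11.2%) than epineurial-gated cells (24.9%), although the members were deeper.

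The members held few mRNAs for Wnt and BMP antagonists. Of 16 Wnt modulators, receptors and targets compared, 13 were lower in members than in epineurial-gated cells and none was higher, against 11.4% of all genes lower. Sfrp4, a secreted Wnt antagonist, was found in 13.5% of members and 67.3% of epineurial-gated cells, Sfrp2 was 14.1-fold lower (125 against 1773 CPM), Sfrp1 10.3-fold (88.2 against 911) and Dkk2 17.7-fold (23.6 against 417). Sfrp5 was highest in perineurial-gated cells, at 7089 CPM, and stood at 27.3 in members. The ligand Wnt5a was lower too (53.4 against 135 CPM), whereas the receptor gene Fzd2, at 246 CPM in 41.6% of members, and the target Axin2, at 33.5 CPM, were 1.76- and 1.73-fold above the epineurial-gated cells and so short of 2-fold.

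BMP and TGF-beta modulators showed the same lean, with 14 of 20 lower and 4 higher, and without the dissociation-high sub-cluster 12 lower and 1 higher of 18. The antagonists and carriers Chrdl1 (36.8-fold), Fst (8.38-fold) and Ltbp4 (8.76-fold) and the ligands Gdf10 (35.4-fold) and Bmp4 (6.69-fold) were lower in members. Higher were the ligands Bmp7 (55.9 against 10.4 CPM) and Bmp5 (38.5 against 16.8), the pseudoreceptor Bambi (57.1 against 12.9) and Id3 (679 against 308), a transcriptional target of BMP signaling. In the Hedgehog list 1 of 8 was higher and 4 were lower. The higher gene was Gli1, a direct target of Hedgehog signaling (89.4 against 41.4 CPM, 2.16-fold, 1.41 to 3.38), and Gas1, Cdon and Boc, which encode co-receptors, were lower (14.9-, 7.62- and 23.97-fold, the last against 2 UMIs in members, interval 6.27 to 204). Dhh, the Hedgehog ligand of Schwann cells, was at 4.97 CPM in members and 166 in Schwann-gated cells.

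Gfra1, the co-receptor of GDNF, was higher in members than in the other gated classes. It was found in 51.3% of members at 358 CPM (318 to 401), with a median of 182 and a maximum of 5618 CPM over single members. The level was 11.6 CPM in epineurial-gated, 15.1 in perineurial-gated and 27.7 in Schwann-gated cells, and had no UMI in endothelial-gated cells. The ratio to epineurial-gated cells was 30.7-fold (15.95 to 67.8). Gfra2, the co-receptor of neurturin, stood at 122 CPM (6.27-fold, 3.62 to 11.6), with 55.3 CPM in perineurial-gated, 27.7 in Schwann-gated and 5.22 in endothelial-gated cells, and Ntrk3 at 27.3 CPM (5.28-fold). Ngfr, the low-affinity neurotrophin receptor, which was outside the receptor list, was found in 27.7% of members at 129 CPM (14.3-fold above epineurial-gated cells, 6.68 to 36.3). Schwann-gated cells had 138 CPM. Ngfr is also one of the Schwann cell markers summed above, and the paper lists it as a marker of Schwann lineage cells. The part of Schwann cell RNA in its level in members was not tested. In the receptor list as a whole 4 of 21 were higher and 2 lower, and Fgfr1, Egfr, Il6st, Tnfrsf1a and Pdgfrb were within 2-fold of the epineurial-gated cells.

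Growth factors ran low. Of 17 neurotrophic and growth factors compared, 11 were lower than in epineurial-gated cells and none was higher. Gas6, a ligand of the TAM receptors, stood at 63.3 against 1267 CPM (20.01-fold lower), Fgf7 at 37.3 against 197 and Igf1 at 389 against 1127 (2.90-fold lower, 2.55 to 3.31). Gdnf and Bdnf had no UMI in members, which allows a share of up to 1.12% of cells with a UMI. The 5 insulin-like growth factor binding proteins compared were all lower, led by Igfbp3 (8.67-fold) and Igfbp6 (5.33-fold, and 11538 CPM in perineurial-gated cells). Complement and antigen presentation genes were lower in 11 of 15, with C7, C2 (7.20-fold) and the inhibitor Serping1 (2.88-fold) among them.

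Of 143 ligands in a list taken from the study, 138 were in the uninjured matrix. The members held a UMI of 29 of them in at least 10% of cells and of 72 in at least 2%, and 22 had no UMI. The ligand in most members was Ccl11, the chemokine eotaxin, in 87.6% (1642 CPM, median over single members 1243, maximum 9305). At equal depth Ccl11 was found in 50.6% of members, 18.2% of epineurial-gated cells and 0.714% of 140 Sox10-positive cells. Il33, an alarmin of the interleukin family, followed the same order (27.7%, 8.53% and 3.57% at equal depth), as did Cxcl1 (31.1%, 7.94% and 6.43%) and Ccl7 (14.98%, 3.24% and 1.43%), both attractants of leukocytes. Fstl1, Igf1 and Nenf were found in fewer members than epineurial-gated cells at equal depth (41.6 against 64.1%, 15.7 against 34.7% and 13.5 against 23.2%). Cxcl12, the ligand of CXCR4, was in 16.9% of members, 18.2% of epineurial-gated and 50.4% of endothelial-gated cells. Sema3b and Rtn4, both inhibitors of axon growth, were most frequent in Sox10-positive cells (28.6% and 16.4%, against 8.99% and 11.99% of members). Mif was in 2.25% of members and 10.7% of Sox10-positive cells at equal depth.

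**Figure D3:**
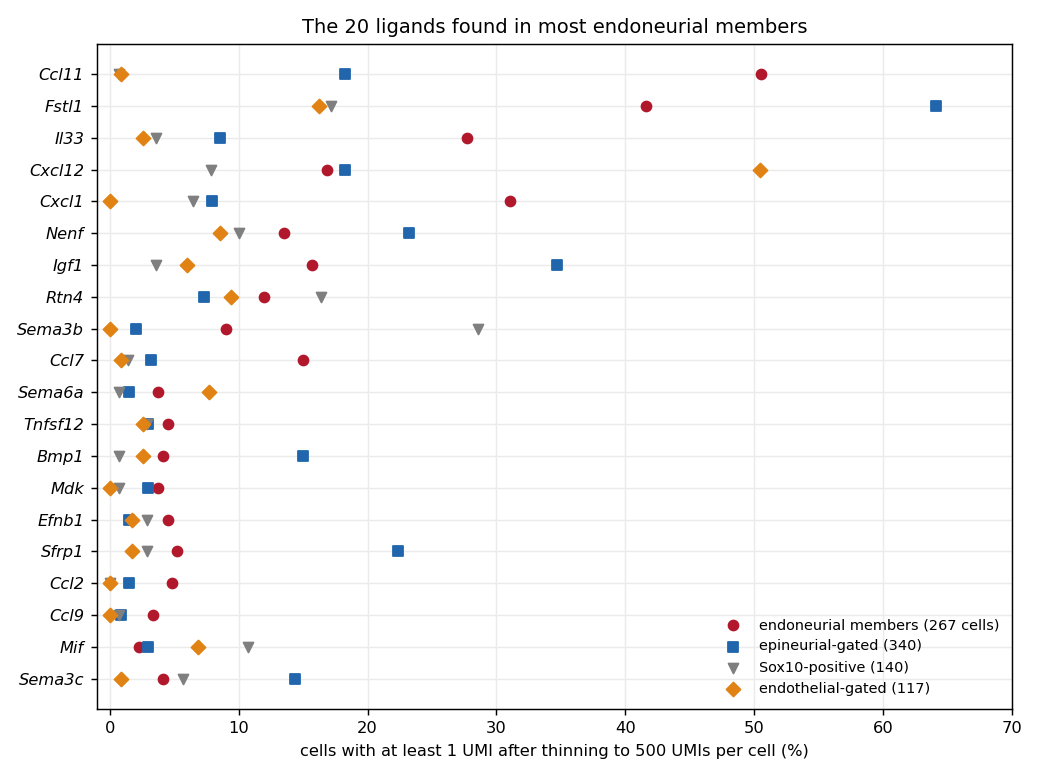
Percent of cells that held a UMI of each of the 20 ligands found in most members, after thinning every cell to 500 UMIs, in members, epineurial-gated, Sox10-positive and endothelial-gated cells of the uninjured library. Ccl11, Il33, Cxcl1 and Ccl7 are most frequent in the members, Fstl1 (64.1%), Igf1 (34.7%) and Sfrp1 in the epineurial-gated cells, and Cxcl12 (50.4%) in the endothelial-gated cells.

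In the list of chemokines and cytokines, 7 of 16 were higher and 6 lower than in epineurial-gated cells. Cxcl1 (7.18-fold), Ccl7 (6.55-fold), Il33 (4.74-fold), Il34 (4.04-fold), Ccl11 (4.03-fold) and Ccl2 (3.21-fold) were among the higher ones. Some of these moved with the dissociation response described below. Cxcl1 stood at 2754 CPM in the dissociation-high sub-cluster and 678 CPM in the 113 others of the main kind, while Ccl11 (1771 and 1540) and Il33 (867 and 902) differed little between them.

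Genes of lipid handling were divided. Enpp2, autotaxin, which makes lysophosphatidic acid, was found in 79.8% of members at 1284 CPM (12.7-fold above epineurial-gated cells, 10.1 to 16.2). The lipid transporter genes Abca6, Abca9, Abca8b and Abca8a, neighbors in 1 gene cluster, were all higher, at 904, 717, 355 and 1120 CPM and 15.5-, 5.43-, 2.61- and 2.06-fold. Abca6 ran from 0 through a median of 709 to 5147 CPM over single members and had no UMI in endothelial-gated cells. Lower were Lpl, lipoprotein lipase (6.02-fold), and Abca1, the cholesterol exporter (8.69 against 69.9 CPM, 8.04-fold). In total 8 of 24 genes of this list were higher and 8 lower.

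The mRNAs for making cholesterol were high in the members as a group. Cells make sterols from acetyl-CoA through mevalonate and squalene, and the SREBP2 factor (gene Srebf2) turns on these genes when sterols in the endoplasmic reticulum are low. A list of 24 genes of sterol synthesis and uptake was drawn up after several of them had been seen among the largest ratios to 3 DPI, so their count is a description. Of 22 compared with epineurial-gated cells, 20 were at least 2-fold higher and none lower, against 10.2% of all genes higher. The list summed to 2539 CPM in members, 564 in epineurial-gated, 1066 in perineurial-gated, 412 in endothelial-gated and 2990 in Schwann-gated cells. The Schwann cell markers summed to 816 CPM in members and 31086 in Schwann-gated cells, and their part in the sterol level of the members was not tested. The list was found in 93.3% of members, with a median of 2032 CPM over single members (quartiles 968 and 3574), and in 54.4% of epineurial-gated cells, with a median of 284.

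Hmgcs1, the synthase of the first committed steps, was found in 49.8% of members at 440 CPM (5.07-fold above epineurial-gated cells, 3.90 to 6.69), and reached 16 UMIs in a single cell. Sc4mol, also named Msmo1, a methylsterol monooxygenase, was found in 44.2% at 317 CPM (9.06-fold) and Insig1, which holds the SREBP complex in the endoplasmic reticulum and is itself an SREBP target, in 29.6% at 170 CPM (5.72-fold). Sqle (8.96-fold), Fdps (6.24-fold) and Srebf2 (2.79-fold) were also higher, and Ebp (1.41-fold) was short of the threshold. Idi1 had no UMI in epineurial-gated cells and was at least 7.36-fold higher in members at 28.6 CPM.

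The promoters of the 3 genes described first are shown because a shared letter pattern is found in them. Each is the 250 bases before the transcript start in RefSeq (build GRCm38.p6), on the strand of the gene, with Hmgcs1 at chr13:119690101-119690350 (plus strand), Sc4mol at chr8:64733579-64733828 (minus strand) and Insig1 at chr5:28071162-28071411 (plus strand). Capitals mark the letters CCAAT, the motif of the factor NF-Y, on either strand (ATTGG where it lies on the other strand), CACCCCAC, a form of the sterol regulatory element, in Hmgcs1, and CACGTG, the E-box, in Insig1.
Hmgcs1: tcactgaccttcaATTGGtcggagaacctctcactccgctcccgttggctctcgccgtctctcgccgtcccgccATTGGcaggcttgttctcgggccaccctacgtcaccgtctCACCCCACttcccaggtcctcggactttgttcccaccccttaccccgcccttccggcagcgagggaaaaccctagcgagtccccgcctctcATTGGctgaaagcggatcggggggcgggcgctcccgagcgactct
Sc4mol: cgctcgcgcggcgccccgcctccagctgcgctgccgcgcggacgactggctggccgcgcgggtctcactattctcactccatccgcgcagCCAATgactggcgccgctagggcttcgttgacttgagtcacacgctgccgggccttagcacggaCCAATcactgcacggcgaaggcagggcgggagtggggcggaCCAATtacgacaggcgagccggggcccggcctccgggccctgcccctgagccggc
Insig1: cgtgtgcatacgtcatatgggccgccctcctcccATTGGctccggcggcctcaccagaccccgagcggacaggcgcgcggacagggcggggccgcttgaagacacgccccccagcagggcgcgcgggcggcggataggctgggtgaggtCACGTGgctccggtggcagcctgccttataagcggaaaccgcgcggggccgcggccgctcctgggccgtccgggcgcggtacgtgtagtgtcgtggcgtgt
Of the 24 listed genes 17 had a promoter in the RefSeq table. CCAAT was found in 16 of these 17 (94.1%), among them all 3 above, and in 37.5% of the 250-base windows of 27025 genes. CACCCCAC was found in 2 of 17 (11.8%, Acat2 and Hmgcs1; 2.98% of all genes) and CACGTG in 4 of 17 (23.5%, Dhcr7, Hsd17b7, Insig1 and Sc5d; 6.86% of all genes), with no overlap between the motifs in the 3 sequences shown. A match is a description of these letters and does not show that a factor was bound.

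**Figure D4:**
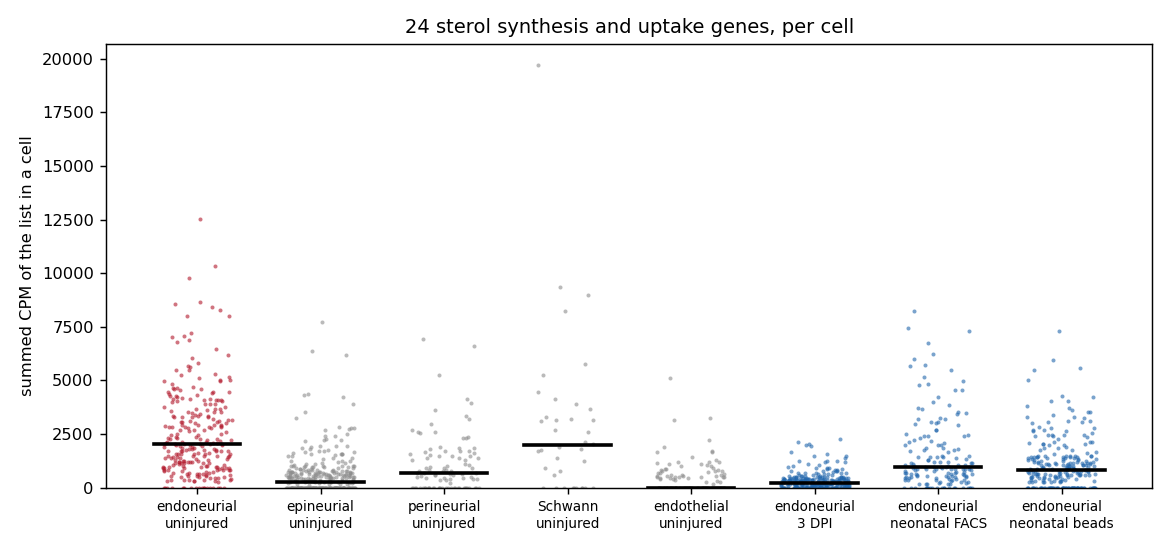
Summed CPM of the 24 sterol synthesis and uptake genes in each cell (points) of the members, of 4 other gated classes of the uninjured library and of the cells of the same gate in the other 3 libraries, with the median as a bar. The median was 2032 CPM in members, 284 in epineurial-gated cells and 211 at 3 DPI.

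The sterol genes summed to 2649 CPM in the 238 members of the main cluster and to 2180 CPM in the 124 members outside the dissociation-high sub-cluster, against 564 CPM in epineurial-gated cells. Within the main cluster 20 of 22 were higher than in epineurial-gated cells, and without the dissociation-high sub-cluster 14 of 16, where 6.12% of all genes were higher. The summed level was 2801 CPM in the 143 members of that sub-cluster, 2337 in the 113 other members of the main kind and 925 in the last 11. The dissociation genes themselves were also high in members and in Schwann-gated cells (46750 and 40692 CPM), and the part of cell handling in the sterol level was not tested.

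Genes for inhibitors of cyclin-dependent kinases were found in members next to almost no proliferation mRNA. Mki67 had no UMI in members (0 of 267 cells, which allows up to 1.12% of cells with a UMI by a limit of 3 counts), and Top2a gave 1 UMI. Cdkn2a was found in 36.3% of members (238 CPM, 206 to 275) and its neighbor Cdkn2b, which encodes p15, in 43.1% (291 CPM). Cdkn2b was 37.4-fold above epineurial-gated cells (16.9 to 103). A single member held at most 11 UMIs of Cdkn2a and 8 of Cdkn2b, so that no single cell made up the result. Outside the members Cdkn2a stood at 20.1 CPM in perineurial-gated cells and had no UMI in Schwann- or endothelial-gated cells. Cdkn1a, which encodes p21, was 2.66-fold above epineurial-gated cells at 258 CPM but followed the dissociation response, with 381 CPM in the dissociation-high sub-cluster and 102 CPM in the 113 others. In the list of 7, which was drawn up after values were seen, 3 of 5 compared were higher and none lower. Because Cdkn2a and Cdkn2b lie next to each other and Cdkn2a has several transcripts, the gene counts do not say which product was made.

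The members differed among themselves in immediate-early and stress genes, which cells turn on within minutes and which are known to respond to tissue dissociation. All 16 genes of this list were found in at least 10% of members, and they summed to 46750 CPM, with 842 in the lowest member, a median of 43597 and 140167 in the highest. Epineurial-gated cells had 12038 CPM, perineurial-gated 18190, endothelial-gated 26183 and Schwann-gated 40692. Of the 16 genes 12 were higher than in epineurial-gated cells and none lower, and 8 were higher without the dissociation-high sub-cluster, where 6.12% of all genes were higher. Fos alone ran from 0 through a median of 9799 to 34952 CPM over single members, and Egr1 from 0 through 5495 to 27972.

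**Figure D5:**
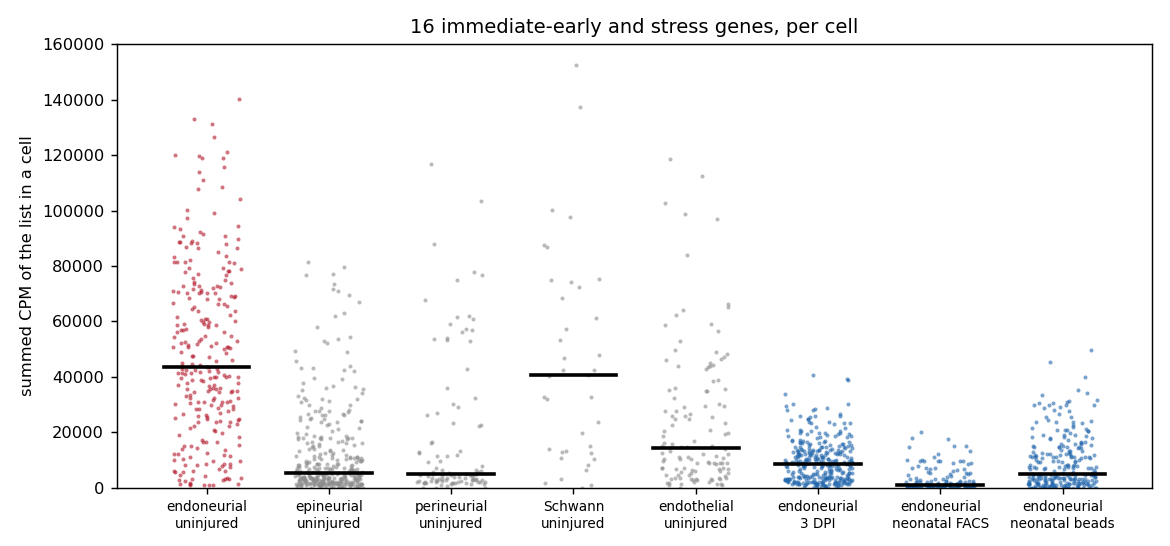
Summed CPM of the 16 immediate-early and stress genes in each cell (points) of the members, of 4 other gated classes of the uninjured library and of the cells of the same gate in the other 3 libraries, with the median as a bar. The members spread from 842 to 140167 CPM around a median of 43597, above the 8536 CPM of the 3 DPI cells.

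A clustering of the members alone divided them into 143, 113 and 11 cells, with median depths of 3050, 2361 and 3285 UMIs. The first group had 61873 CPM of the 16 genes, against 26838 and 20173 in the others. Its leading genes included Sostdc1, Irf1, Egr2 and Atf3, of which Egr2 and Atf3 are immediate-early genes. Over single cells the first group ran from 3422 through a median of 65738 to 140167 CPM and the second from 842 through 25991 to 89077, so that they overlapped. The second group was led by the globin genes Hba-a1 and Hbb-bs (11.7- and 3.43-fold above the other members). Cthrc1 (2.37-fold) and the gate gene Meox1 (2.04-fold) came further down. Apod stood at 76128 CPM in the second group against 62484 in the first. The third group of 11 cells went against the label. Its epineurial markers summed to 10153 CPM, against 422 and 516 in the other groups, and it was led by Cxcl13, Pcolce2, Sfrp2, Pi16, Col14a1, C3 and Dpt. In these 11 cells Sfrp2 stood at 2327 CPM (17.2 and 16.5 in the others), C3 at 1586 and Apod at 15731, and Cdkn2a had no UMI. Of the epineurial genes still seen in members, a large part therefore lay in these 11 cells (4.12% of members). The genes that set up these groups also defined them, so their levels are descriptions.

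Depth changed shares more than levels. In the shallowest 89 members (683 to 2125 UMIs) Gfra1 was found in 36.0% and in the deepest 89 (3525 to 8026 UMIs) in 67.4%, while its level was 458 and 350 CPM. Cdkn2a was lower in both measures in the shallowest (19.1% and 150 CPM) than in the deepest members (53.9% and 278 CPM). Osr2 was found in 56.2% and 79.8% at 851 and 674 CPM, with the caution that the minimum of 2 endoneurial UMIs asks more of a shallow cell.

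Perineurial-gated cells, which share the gate's mesenchymal genes, were the class nearest to the members in Smoc2 (3429 CPM) and were far from them in other genes. Abca6 stood at 10.1, Enpp2 at 60.3 and Gfra1 at 15.1 CPM in them, against 904, 1284 and 358 in members. They also held 674 CPM of Mbp and summed Schwann markers of 4907 CPM.

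Against the cells of the same gate at 3 DPI, 8736 genes were compared, and 573 (6.56%) were higher in the uninjured members while 2043 (23.4%) were lower. The 3 DPI cells had a median of 6046 UMIs against 2856, and the median gene was lower in members by -0.409 on the log2 scale, so that levels are best read against that shift. With libraries scaled to the median gene 1038 genes were higher and 1185 lower. Apod was 1.58-fold higher in the uninjured members (65414 against 41365 CPM). Dcn (4.32-fold) and Lum (2.48-fold) were higher too, but both are genes of the gate that chose the cells of each library. Their levels are not findings.

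The genes with the largest ratios in favor of the uninjured members were of 3 kinds. Mbp (71.2-fold, 23.5 to 352) is a Schwann cell mRNA, at 101 CPM in members against 1.41 CPM (3 UMIs) at 3 DPI. It was found also in 9.06% of uninjured epineurial-gated cells, and the part of free myelin RNA in this ratio was not tested. Myoc, myocilin, first known from the eye, stood at 704 CPM against 22.1 (31.8-fold, 23.6 to 43.8), Cpxm2, a carboxypeptidase-like protein, at 746 against 26.4 (28.3-fold, 21.5 to 37.9), Scel at 44.7 against 1.41 (3 UMIs, 31.6-fold, 9.998 to 161) and Osgin1 at 68.3 against 1.88. The third kind were sterol genes, among them Insig1 (21.2-fold, 12.8 to 37.5), Sc5d (21.1-fold) and Sc4mol (20.4-fold, 14.1 to 30.2). Of 22 sterol genes compared 21 were higher in the uninjured members and none lower, and 16 of 16 without the dissociation-high sub-cluster, where 4.46% of all genes were higher. The promoters printed above belong to 3 of them. Their sum was 2539 against 321 CPM, and over single cells the median was 2032 against 211. Hmgcs1 was 11.5-fold higher (9.03 to 14.9). Klf15 (26.4-fold) and Slc16a9 (23.7-fold) were also among the 12 largest.

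Part of the genes of other lists were higher in the uninjured members too. Smoc2 was 17.7-fold higher in the uninjured members, Abca6 13.4-fold, Gfra1 6.97-fold (5.57 to 8.77), Apoe 6.77-fold, Enpp2 6.63-fold, Lama2 5.66-fold and Col15a1 3.17-fold. Of 14 complement and antigen presentation genes 6 were higher and 4 lower, beside 6.56% of all genes higher and 23.4% lower. Among the higher ones were C1s (2.59-fold), Serping1 (2.52-fold) and H2-D1 (2.18-fold). All 16 dissociation genes were compared and 14 were higher (11 without the dissociation-high sub-cluster, beside the same 4.46%). The sum of 46750 CPM stood against 9682 CPM at 3 DPI. Both libraries were cleared with beads.

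The 8 smallest ratios to 3 DPI included genes of different roles. Timp1, an inhibitor of metalloproteinases, stood at 18.6 against 1783 CPM (95.7-fold lower, 57.9 to 171) and was found in 4.87% against 91.3% of cells. Tnc, tenascin C, stood at 2.48 CPM (2 UMIs) against 432 CPM, Cxadr at 1.24 against 127 CPM and Kng2, a kininogen, at 1.24 against 238 CPM. Saa3, an acute-phase protein, had no UMI in members and 320 CPM at 3 DPI (at least 86.0-fold lower). Of 7 proliferation genes 7 were lower in the uninjured members, with Top2a at 1.24 against 165 CPM and Prc1 at 1.24 against 97.0. Lyz2, a gene of macrophages, was among the 8 lowest as well, at 2.48 against 150 CPM, and it was found also in 32.1% of the 3 DPI epineurial-gated cells. Both kinds of cell should lack it, and the part of free macrophage RNA was not tested. Of 16 chemokines and cytokines 4 were lower and 3 higher. Of 22 matrix turnover genes 7 were lower and 5 higher. Of all genes 23.4% were lower and 6.56% higher.

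Lox (21.5-fold), Aldh1a3 (16.04-fold), Cthrc1 (12.9-fold), Ccl2 (11.8-fold, 170 against 2016 CPM), Plod2 (9.88-fold), Col14a1 (6.23-fold) and Fn1 (3.95-fold) were further genes lower before injury. Of 19 neurotrophic and growth factors compared none was higher and 9 were lower, beside 6.56% of all genes higher and 23.4% lower. Igf1 (2.42-fold) was among those lower in the uninjured members. The cartilage genes were higher at 3 DPI in 4 of 7, beside the same 23.4% of all genes. Col2a1 stood at 384 CPM there against 79.5 (4.84-fold). Cdkn2b was equal (291 CPM in both) and Cdkn2a close (238 against 290 CPM), so these inhibitors were found in cells of the gate both before and after injury.

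Against the neonatal cells, a gene was called only when both neonatal libraries gave a 2-fold ratio in 1 direction. Of 5638 genes compared 518 (9.19%) were higher in the adult uninjured members and 689 (12.2%) lower, and the median gene was lower by -0.337 and -0.316 on the log2 scale in the FACS and the bead comparison. Counts of listed genes below are to be read against these shares of 9.19% and 12.2%. Scaled to the median gene 764 were higher and 378 lower. The sorted neonatal cells also differed in preparation, and they held much Schwann cell RNA, with Mbp in 68.6% of them (763 CPM) and in 33.7% of the neonatal bead cells (529 CPM). Age, preparation and this RNA cannot be told apart in the FACS comparison, nor age and this RNA in the bead comparison. Summed Schwann cell markers stood at 4082 CPM in the FACS and 2859 CPM in the bead cells, against 816 in members. With at least 3 endoneurial UMIs asked for, 358 genes were lower. The median log2 ratio was then -0.242 (FACS) and 0.00064 (beads).

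Genes of growth were low in the adult members. Dlk1, a Notch ligand-like protein of immature mesenchyme, stood at 23.6 CPM against 4374 and 3630 (185- and 154-fold lower). Igf2, insulin-like growth factor 2, stood at 38.5 CPM against 4416 and 3319 (115- and 86.2-fold), its binding protein gene Igfbp2 at 2.48 against 365 and 213, and H19 at 153 against 5711 and 6132 CPM (37.4- and 40.1-fold). All 10 imprinted growth genes compared were lower in adult members. Fbn2, the fibrillin of developing tissue, was 39.8- and 39.9-fold lower and Igf2bp2 80.1- and 61.9-fold. Ednrb, an endothelin receptor that the paper lists as a marker of non-myelinating Schwann cells, was 47.1- and 55.5-fold lower. Schwann cell markers summed to 9121 and 7602 CPM at the upper quartile of the neonatal FACS and bead cells, against 832 in members. The part of Schwann cell RNA in these ratios was not tested. The 6 proliferation genes compared were all lower, and so were Mdk (13.9- and 8.11-fold), Col14a1 (12.9- and 13.6-fold), Col11a1 (8.46- and 6.14-fold) and Postn (5.78- and 4.99-fold).

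Secreted and matrix proteins of the adult were the other side of this comparison. Dpep1, a membrane dipeptidase, stood at 681 CPM against 4.89 and 1.92 (139-fold, 47.3 to 676, against 3 UMIs, and 354-fold, 63.3 to 14007, against 1 UMI). Cpxm2 and Myoc had no UMI in either neonatal class and were at least 129-fold and at least 122-fold higher in members with a floor of 3 UMIs over the class. Ecm1 (46.8- and 49.6-fold), Efemp1 (43.5- and 86.1-fold), Crispld2 (37.6- and 39.9-fold), Gsn, gelsolin (36.3- and 35.7-fold), and Enpp2 (25.4- and 31.8-fold) were far higher in adult cells, as was the retinal dehydrogenase Aldh1a1 (107- and 45.5-fold). Apod itself was 28.7- and 15.04-fold higher. Of 12 chemokines and cytokines 9 were higher and none lower, with Il33 at 859 CPM (10.8- and 12.4-fold), and of 12 complement and antigen presentation genes 9 were higher and none lower. Hspa1a and Hspa1b, heat shock genes, were among the largest ratios, and all 16 dissociation genes were higher in adult members (12 without the dissociation-high sub-cluster, where 7.58% of all genes were higher). Of 21 sterol genes 9 were higher in both comparisons and none lower, and Hmgcs1 was 2.28- and 3.63-fold higher.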

How the data were processed

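The authors deposited raw digital gene expression matrices of 4 Drop-seq libraries, that is UMI counts for each gene and barcode without normalization, made after the Drop-seq Alignment Cookbook (named with build mm10 in the submitters' processing notes). Totals were 4513814 UMIs in 2000 barcodes (uninjured), 8123103 in 2500 (3 DPI), 5110171 in 2500 (neonatal FACS) and 7634799 in 6200 (neonatal beads).

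Members, gene lists and comparisons were chosen with earlier results of these data known, and 3 lists were added after values were seen. Barcodes under 200 genes or over 10% mitochondrial UMIs were left out. Doublets were not removed in the main values, and leaving out the 5% of barcodes with the highest simulated doublet score was an alternative. The perineurial gate asked for at least 3 mesenchymal UMIs and 2 UMIs of Slc2a1, Casq2, Msln, Cldn1 and Itgb4, in cells that were not members. The epineurial and perineurial gates both asked for no UMI of Sox10, Pecam1 or Ptprc. The Schwann gate asked for a Sox10 UMI, no Pecam1 or Ptprc and at most 2 mesenchymal UMIs. The endothelial gate asked for Pecam1, at least 2 UMIs of Pecam1, Plvap, Esam and Cdh5, no Sox10 or Ptprc and at most 2 mesenchymal UMIs. The Sox10-positive cells of the ligand comparison were a wider class than the Schwann-gated cells. They had a Sox10 UMI, no Pecam1 or Ptprc and any number of mesenchymal UMIs (143 cells, of which 140 could be thinned).

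CPM was the sum of UMIs over a class per 1000000. Ratios were compared for genes with at least 20 UMIs in the higher class, at a fold of 2, with the genes of the gates left out. Intervals were exact (Clopper-Pearson for shares, Poisson for CPM, conditional binomial for ratios, 95%) and cover counting error only, since cells of 1 library are not replicates. A class at 0 was set to 3 UMIs over the class. Clusters came from 2000 variable genes without the genes of the gates, 20 principal components, 15 neighbors and Leiden at 0.4 (scanpy 1.11.5, leidenalg 0.10.2). Cells were thinned to 500 UMIs with a fixed seed, which left out 2 epineurial-gated cells and none of the members. Python 3.11.15, numpy 2.4.6, scipy 1.17.1 and pandas 2.3.3 were used, and the scripts were tested on simulated counts.

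Genes named are those of the gate, the 15 of highest CPM without mitochondrial and ribosomal genes, the 12 largest and 8 smallest ratios of each comparison (at least 30 UMIs in the higher class and 10% of its cells), list members in at least 10% of members or at the ends of their list, and the 20 most frequent ligands. Genes named outside this rule (Ngfr, Dhh, Gdnf, Bdnf, and others in under 10% of members) were chosen after their values were seen. Some genes that the rule names are not reported here.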

Additional observations from a re-analysis of the deposited data

How the results depend on the processing

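A single library stood for each group, so no replicate could be left out. No paired analysis was possible because the results come from no test. The gate gave 267 members, 192 with an endoneurial sum of at least 3, and the main cluster held 439 cells. Counts of genes called higher and lower moved by over 1.5 times under these settings. With at least 3 endoneurial UMIs, 358 genes were lower than in neonatal cells. Scaling to the median gene gave 1038 and 1185 against 3 DPI and 378 lower against neonatal cells. A fold of 3 gave 351 and 378 against epineurial-gated cells, 262 and 959 against 3 DPI and 304 and 261 against neonatal cells. A minimum of 50 UMIs gave 308 and 366, 307 and 1290, and 303 and 318 in the same order, and no minimum gave 1451 and 2047 against epineurial-gated, 1853 higher than 3 DPI and 811 and 1812 against neonatal cells. After thinning to 500 UMIs, which leaves fewer UMIs, the counts were 181 and 292, 202 and 418, and 189 and 153, and 30 ligands reached 2% of members. Without the dissociation-high sub-cluster of 143 members, a setting added after seeing the data, 302, 340 and 330 genes were higher than in epineurial-gated, 3 DPI and neonatal cells. On the log2 scale the direction turned for Sema6a against neonatal FACS (-0.25) and Efnb1 against neonatal beads (0.015) after thinning. For all of these except the settings that test fewer genes or cells, the cause was not tested.

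Of 237 log2 ratios of named genes, 233 stayed within 0.5 of the value given with at least 6 mesenchymal UMIs, 235 with at least 500 genes, 237 with at most 5% mitochondrial UMIs, 224 without likely doublets, 213 within the main cluster, 162 without the dissociation-high sub-cluster, 175 with at least 3 endoneurial UMIs, 178 as means over cells and 117 after thinning. Taking Apod and the dissociation genes out of the totals moves every ratio of a comparison by the same amount. All 237 stayed within 0.5 under that setting, which therefore says nothing about single genes. Depth limits genes near 0, and ratios against 1 to 3 UMIs have wide intervals.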

Other observations

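Some gene groups were not part of the account above. The imprinted growth genes that were low against neonatal cells were mostly near the level of adult epineurial-gated cells, with 1 of 9 compared higher in members and 2 lower. Hox genes of the caudal clusters were found at low levels, with Hoxc10 in 11.2% of members (44.7 CPM, and 98.4 in epineurial-gated cells) and Hoxa10 at 36.0 CPM against 148, and 3 of 8 were lower in members and none higher. The contractile genes Acta2 (70.8 CPM), Myl9 (183) and Tagln (36.0) were far below the perineurial-gated cells (1780, 1071 and 1679), and Cthrc1 was the 1 gene of 7 in that list higher in members than in epineurial-gated cells (99.4 against 27.2 CPM). Among 20 genes of axon guidance and adhesion compared, 6 were higher in members than in epineurial-gated cells and 11 lower. Nrp2 (91.9 against 27.2 CPM) and Sema3b (212 against 91.9) were higher, and Nrp1 (191 against 581) and Sema3c (86.9 against 452) were lower.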
